A study of Mus musculus with 21 samples.

Results

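Zscan4c, Zscan4d, Zscan4f, Tcstv1, Tcstv3, Zfp352, Usp17lc and Usp17le, 8 mouse genes known for their transcription in the 2-cell embryo, were followed from the gametes to the blastocyst. They were taken by name, with no threshold on a measured value. Each long-read transcript of the merged set was assigned to the gene of GENCODE vM21 whose exons it overlapped most on its own strand, and the level of a gene is the sum of its transcripts in TPM (a transcript's share of its library, corrected for transcript length). Of the 8 genes, 7 had a merged transcript, and these 7 held 8 of the 22612 merged transcripts and were part of 10917 annotated genes with a merged transcript. Usp17le had no transcript in the merged set or in any of the 7 long-read pools, so no level can be given for it.

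The samples were DBA/2J sperm, C57/BL6J oocytes and embryos of ♂DBA/2J x ♀C57/BL6J at the 1-cell, 2-cell, 4-cell, 8-cell and blastocyst stages. Each stage had 2 short-read libraries and 1 long-read pool, all made from amplified cDNA of pooled gametes or embryos, so a level is an average over many embryos. Oocytes and embryos came from females of 3 to 5 weeks that received 7.5 IU of PMSG and, 48 h later, 7.5 IU of hCG. Oocytes were taken 20 h after hCG, and embryos cultured in KSOM at 37 °C with 5% CO2 were lysed at 24 to 26 h (1-cell), 46 to 48 h (2-cell), 54 to 58 h (4-cell), 68 to 70 h (8-cell) and 94 to 96 h (blastocyst). The protocol names DBA/2N males where the titles give DBA/2J. Per the study, 2 batches were collected within each stage. Part of the cDNA of each batch went to short reads, and equal amounts of both were mixed for the long-read pool. The pool of a stage is thus not separate material from its short-read libraries. The p-values rest on the spread between the 2 libraries of a stage, pooled for each gene over the 12 libraries from oocyte to blastocyst. They do not measure the spread of the 2-cell pair alone, which was wider than that of the other stages.

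In mice, the embryonic genome is switched on in earnest at the 2-cell stage, when the cells can still form all embryonic and extraembryonic tissues. Zscan4 genes encode DNA-binding proteins with a SCAN domain and zinc fingers that are known for telomere maintenance, and the Tcstv genes encode small proteins of the same stage. Zfp352 encodes a zinc finger protein, and the Usp17l genes encode deubiquitinating enzymes. Most of these genes lie in clusters of near-identical copies, and the transcription factor DUX is known to activate the programme to which they belong.

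The Zscan4 genes lie on chromosome 7 of GRCm38 (mm10), Zscan4c at 11005745 to 11010547 on the plus strand, Zscan4d at 11161374 to 11166159 on the minus strand and Zscan4f at 11397915 to 11402318 on the plus strand. Their annotated coding sequences have the same length of 1518 bases, of which 38 differ among the 3 genes. Zscan4c and Zscan4f were 99.6% identical, and each was 97.7% identical to Zscan4d. The 60-base window of the coding sequence with the most differences is shown, because these are the bases by which a read can be given to one gene rather than another. It runs from coding base 1032 to 1091 in exon 4 of 4 of each gene, and capitals mark the 6 positions at which the genes differ (GENCODE vM21 transcripts on GRCm38, 5′ to 3′ on the strand of the gene).
Zscan4c, chr7:11009507-11009566, plus strand: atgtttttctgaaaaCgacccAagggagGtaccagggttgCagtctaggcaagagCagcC
Zscan4d, chr7:11162351-11162410, minus strand: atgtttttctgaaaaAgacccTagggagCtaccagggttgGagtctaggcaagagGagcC
Zscan4f, chr7:11401700-11401759, plus strand: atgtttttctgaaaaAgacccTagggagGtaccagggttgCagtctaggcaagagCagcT

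Reads of 150 bases were sequenced in pairs. Over the annotated transcripts, 86.2% of the 150-base windows of Zscan4f, 61.0% of those of Zscan4c and 13.0% of those of Zscan4d also occurred in another Zscan4 gene or pseudogene. The share was 29.4% for Usp17lc, 0.948% for Usp17le and 0 for Tcstv1, Tcstv3 and Zfp352. Shorter stretches were shared more widely. Of words of 31 bases, 97.5% were shared for Zscan4f, 91.5% for Zscan4c, 65.0% for Zscan4d and 58.4% for Usp17lc. The share of such words was 48.9% for Usp17le, 39.0% for Tcstv3, 27.0% for Tcstv1 and 0 for Zfp352. The Tcstv genes were compared with AF067061 and AF067063 too. The split of TPM between the Zscan4 copies is therefore uncertain, most of all for Zscan4c and Zscan4f. The comparison held every annotated copy, whereas TPM was computed over merged transcripts, which some copies lack. The shares are thus no measure of the split itself, and how uncertain it is for the Tcstv and Usp17l genes was not tested. Family sums are given below beside the single genes.

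RefSeq windows of 300 bases around the start, 250 before and 50 after it, were held for 5 of the 8 genes (GRCm38.p6). No window was held for Tcstv1, Tcstv3 and Usp17le. The windows of the Zscan4 genes and of Zfp352 are shown because the long-read transcripts of these genes began within 84 bases of the RefSeq start, and capitals mark the letters TATAAA.
Zscan4c, chr7:11005495-11005794, plus strand: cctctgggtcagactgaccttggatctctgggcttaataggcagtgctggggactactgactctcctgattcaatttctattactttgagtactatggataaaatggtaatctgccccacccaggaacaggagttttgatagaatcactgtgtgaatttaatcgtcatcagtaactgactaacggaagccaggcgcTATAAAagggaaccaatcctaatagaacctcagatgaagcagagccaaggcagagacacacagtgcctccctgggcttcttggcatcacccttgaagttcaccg
Zscan4d, chr7:11166099-11166398, minus strand: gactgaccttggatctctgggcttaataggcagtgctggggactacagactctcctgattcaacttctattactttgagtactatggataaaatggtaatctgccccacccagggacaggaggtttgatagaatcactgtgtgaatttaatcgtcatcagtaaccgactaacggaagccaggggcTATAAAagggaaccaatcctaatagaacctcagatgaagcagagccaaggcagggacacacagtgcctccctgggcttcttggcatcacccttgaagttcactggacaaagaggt
Zscan4f, chr7:11397665-11397964, plus strand: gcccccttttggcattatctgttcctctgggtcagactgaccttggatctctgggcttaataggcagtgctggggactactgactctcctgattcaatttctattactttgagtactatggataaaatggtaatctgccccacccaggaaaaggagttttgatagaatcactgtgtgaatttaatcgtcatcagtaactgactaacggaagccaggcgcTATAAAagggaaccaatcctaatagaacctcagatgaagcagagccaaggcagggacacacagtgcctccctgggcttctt
Zfp352, chr4:90218570-90218869, plus strand: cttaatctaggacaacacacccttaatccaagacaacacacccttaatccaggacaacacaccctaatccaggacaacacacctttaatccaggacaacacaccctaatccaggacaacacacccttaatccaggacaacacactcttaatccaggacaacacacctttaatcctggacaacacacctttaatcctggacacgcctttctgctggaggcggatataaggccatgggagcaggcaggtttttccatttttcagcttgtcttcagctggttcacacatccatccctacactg

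The letters TATAAA, searched on the strand of the gene after the windows had been read, were found in 4 of the 5 windows (Zscan4c, Zscan4d, Zscan4f and Usp17lc) and in 8.32% of the 32851 RefSeq windows. The windows of the Zscan4 members were 77.5% to 90.7% identical to each other. Their matches are therefore not independent, and the 2 shares cannot be compared as a test. TATAAA began 31 bases before the long-read start of Zscan4d and 31 bases before the start of the 5-exon transcript of Zscan4f. The 4-exon transcript of Zscan4f began 2 bases upstream of these letters and that of Zscan4c 30 bases upstream, so both hold them. The core of the DUX motif, GATTNAATC, was searched on both strands, does not overlap TATAAA and was found in none of the 5 windows and in 0.268% of all windows. The window of Usp17lc lies around a RefSeq start 1681 bases downstream of the long-read start and does not cover it.

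In the long-read pools, transcripts of the Zscan4 genes were found at the 2-cell stage and at no other stage. Each pool mixed the cDNA of both batches of its stage, so the batch that gave a transcript cannot be told. Zscan4c and Zscan4d had 1 transcript each, of 4 exons. Zscan4f had 2, one of 4 exons that began 33 bases upstream of the annotated start and one of 5 exons that began at it. Usp17lc also had its single transcript in the 2-cell pool, with 3 exons, a start 57 bases upstream of the annotated one and 1 of 2 introns annotated (chromosome 7, 103415015 to 103419882, plus strand).

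**Figure D1:**
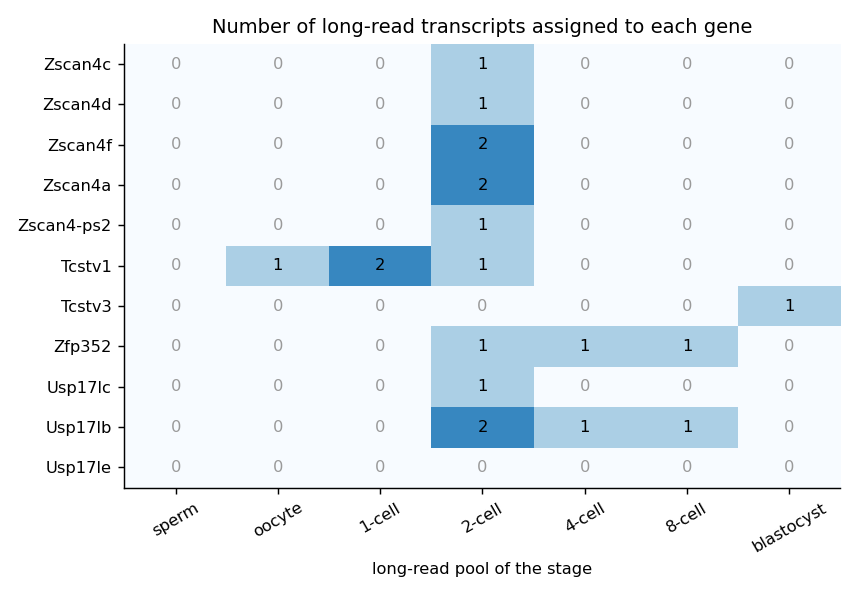
Number of long-read transcripts assigned to each gene (rows) in the long-read pool of each stage (columns), with deeper blue for more transcripts. Each stage had 1 pool, so there is no replicate; the Zscan4 genes and Usp17lc are listed at the 2-cell stage only, Tcstv1 from the oocyte to the 2-cell stage, and Usp17le at 0 throughout.

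Tcstv1 had a different stage pattern and a different structure from its annotation. It had 1 transcript in the oocyte pool, 2 in the 1-cell pool and 1 in the 2-cell pool, on the minus strand of chromosome 13. The merged transcript ran from 119893387 to 119896252 in 3 exons, and its first exon, at 119896139 to 119896252, lies outside the annotated gene (119893388 to 119894785) and starts 1467 bases upstream of the nearest annotated start. All 4 transcripts of the stage pools used this first exon, with starts 1464 or 1467 bases upstream. Tcstv3, on the plus strand of chromosome 13 (120316878 to 120318178), had 1 transcript of 2 exons, in the blastocyst pool. Its coding sequence was 93.6% identical to that of Tcstv1.

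Zfp352, on the plus strand of chromosome 4 (90218820 to 90225702), had 1 transcript in the pool of each cleavage stage from 2-cell to 8-cell. Those of the 2-cell and the 8-cell pool had 2 exons with the annotated intron. The transcript of the 4-cell pool was a single exon of 1316 bases within the gene, starting 727 bases downstream of the nearest annotated start.

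The short-read libraries differed in how well their replicates matched. Over the 10000 genes that passed a filter of 1 TPM in at least 2 of the 12 libraries from oocyte to blastocyst, the median SD between replicates on the log2(TPM + 1) scale was 1.04 at the 2-cell stage, 0.19 at the 4-cell stage and 0.27 to 0.67 at the other embryo and oocyte stages. The 2 libraries of the 2-cell stage stood apart in markers of the oocyte as well: the summed TPM of Zp3, Gdf9, Nlrp5, Oosp1 and Bmp15 was 104 in replicate 1 and 1239 in replicate 2, against 2489 and 2608 in 1-cell embryos and 141 and 143 in 4-cell embryos. The 5 sperm markers summed to 13870 and 20737 in sperm and to 0.419 to 16.98 elsewhere, and the 5 markers of cumulus cells had no merged transcript. Trophectoderm markers were highest in the blastocyst (10122 and 37431).

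The Zscan4 members were close to 0 before the 2-cell stage and highest in 2-cell replicate 2. Zscan4c was at 1.25 and 1.30 TPM in 1-cell embryos, 2.25 and 131 in 2-cell embryos, and 2.39 and 2.12 in 4-cell embryos (replicates 1 and 2). Zscan4d was at 0.622 and 0.614, then 4.65 and 66.7, then 3.07 and 2.23. Zscan4f was at 0.734 and 0.161, then 4.77 and 167, then 4.81 and 4.27. For all 3 genes both 2-cell libraries lay above both 1-cell libraries, but 2-cell replicate 1 lay among or near the 4-cell libraries and a long way below replicate 2. In these pooled samples, fewer cells with a transcript and less of it in each cell cannot be told apart.

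Outside these stages the 3 genes stayed low. In the 2 oocyte libraries Zscan4c was at 0.435 and 0.178, Zscan4d at 0.285 and 0.104 and Zscan4f at 0.0912 and 0.0328. In the 8-cell libraries Zscan4c was at 1.61 and 0.0928, Zscan4d at 1.56 and 0.202 and Zscan4f at 1.21 and 0.164. In blastocyst replicate 1 they were at 0.962, 0.809 and 0.564, and all 3 were listed at 0 in replicate 2. No sperm library held more than 0.183 TPM of any of them.

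**Figure D2:**
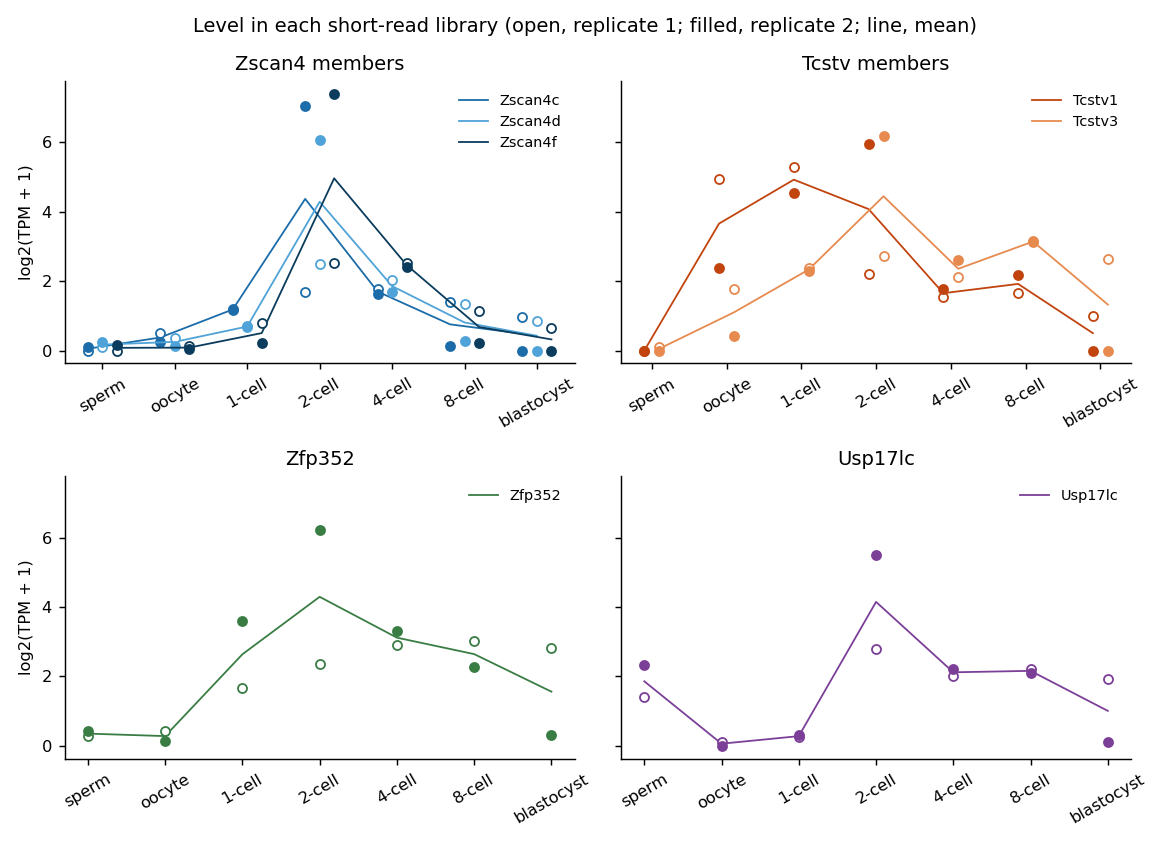
Level of the 7 genes with a transcript in each of the 14 short-read libraries, as log2(TPM + 1), by stage. Open circles are replicate 1, filled circles replicate 2, and the line joins the means; the filled 2-cell circle is the highest point for every gene, and Tcstv1 is the highest of the 7 in each oocyte and 1-cell library.

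Tcstv1 was present before the 2-cell stage. It was at 29.7 and 4.20 TPM in the oocyte libraries, 38.3 and 22.5 in 1-cell embryos, 3.63 and 60.5 in 2-cell embryos, and 1.92 and 2.39 in 4-cell embryos. The 2-cell libraries enclosed the 1-cell values, with replicate 1 below both and replicate 2 above both. Later it was at 2.19 and 3.51 in 8-cell embryos and at 1.01 and 0 in the blastocyst libraries, and it was listed at 0 in both sperm libraries.

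Tcstv3, its near copy, was low in the oocyte (2.45 and 0.340 TPM) and at 4.22 and 3.88 in 1-cell embryos. It was at 5.57 and 71.3 in 2-cell embryos, 3.31 and 5.09 in 4-cell embryos, and 7.74 and 7.93 in 8-cell embryos. The 2 blastocyst libraries gave 5.29 and 0. Both 8-cell libraries thus lay above 2-cell replicate 1, and only 2-cell replicate 2 lay far above the rest.

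Zfp352 was at 0.338 and 0.102 TPM in the oocyte and at 2.19 and 11.1 in 1-cell embryos, which overlapped the 2-cell values of 4.17 and 73.3. It was at 6.55 and 8.95 in 4-cell embryos, at 7.08 and 3.82 in 8-cell embryos and at 6.07 and 0.229 at the blastocyst stage. From the 1-cell stage on, its neighbours in the order of stage means overlapped at every step.

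Usp17lc had the widest gap between the 1-cell and 2-cell libraries. It was at 0.187 and 0.241 TPM in 1-cell embryos and at 5.96 and 44.1 in 2-cell embryos, so that the lower 2-cell value was 24.7 times the higher 1-cell value. It was then at 3.04 and 3.67 (4-cell), 3.65 and 3.30 (8-cell), and 2.77 and 0.0714 (blastocyst). Sperm held 1.64 and 3.99 TPM, more than the oocyte (0.0885 and 0).

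All 7 genes were higher in 2-cell replicate 2 than in replicate 1. The log2 difference between the 2 libraries was 5.34 for Zscan4c, 4.87 for Zscan4f, 3.84 for Zfp352, 3.73 for Tcstv1, 3.58 for Zscan4d, 3.46 for Tcstv3 and 2.70 for Usp17lc. Over all 10000 genes tested the median difference was 0.98, 70.8% of genes were higher in replicate 2, and 24.8% were higher there by more than 2. Only 18 of the 10000 genes had a larger difference than Zscan4c, whereas 1270 had a larger one than Usp17lc. The same libraries differed by 1.71 to 4.56 in the 5 oocyte markers, whose part in the gap was not tested. The read totals listed for the series are also larger for replicate 2, and the part of depth was not tested either. At the 4-cell stage the 7 genes differed by between -0.33 and 0.50.

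**Figure D3:**
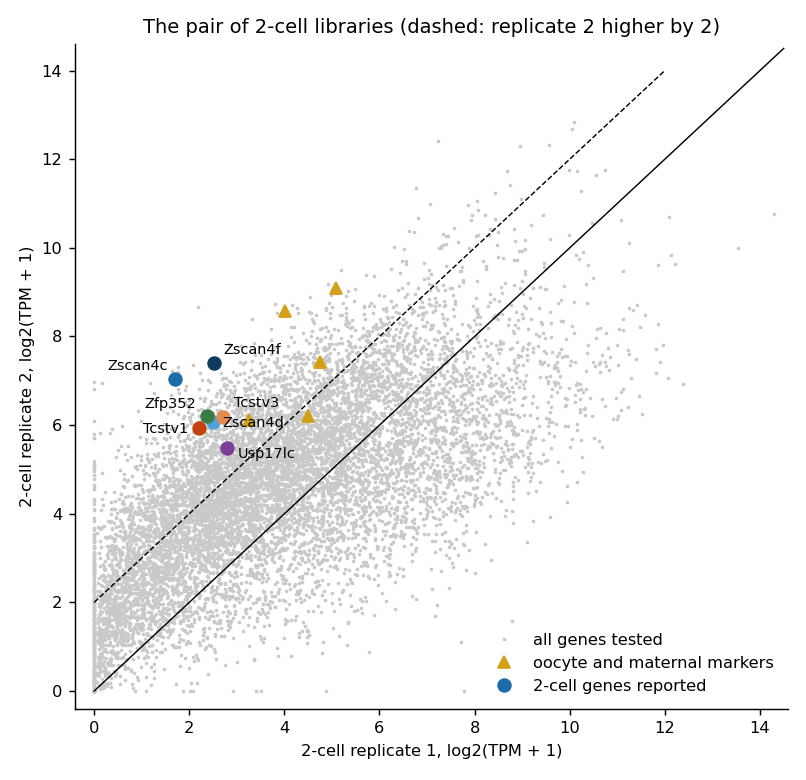
Each gene tested in the pair of 2-cell libraries, replicate 1 on the horizontal axis and replicate 2 on the vertical axis, both as log2(TPM + 1). The solid line marks equal levels and the dashed line a difference of 2; the 7 genes (circles) and 4 of the 5 oocyte and maternal markers (triangles) lie above the dashed line.

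The first comparison asked which of the genes were higher in 2-cell than in 1-cell embryos, the interval of genome activation. In the limma fit on the 12 libraries from oocyte to blastocyst, 4 of the 7 measured genes rose: Zscan4f, Usp17lc, Zscan4d and Zscan4c. All genes tested gave 26.1% called higher in this interval, and their median log2 change was 0.72, against 3.19 for the 7 genes. Zscan4d, Zscan4f and Usp17lc were below 1 TPM in every oocyte and 1-cell library. These 3 passed the filter only through later libraries, which favours a rise. Of all genes called, 80.8% were higher, and 47.5% under quantile normalization, where the median of all genes was -0.12 and 3 of the 7 genes were called higher. Fold changes are on the log2(TPM + 1) scale and understate the change of genes near 0.

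Zscan4f rose by 4.46 on the log2 scale (SE 1.06, adjusted p = 0.0059). Usp17lc rose by 3.87 (SE 0.79, adjusted p = 0.00235) and Zscan4d by 3.59 (SE 0.86, adjusted p = 0.00631). Zscan4c rose by 3.19 (SE 1.15), with an adjusted p of 0.0475 that lay close to the threshold and was at 0.0529 or above under 17 of 19 other settings, among them the replicate block (0.0576). Of the genes that did not pass, Tcstv3 had a log2 change of 2.11 (SE 1.03, adjusted p = 0.132), Zfp352 of 1.66 (SE 1.10, adjusted p = 0.272) and Tcstv1 of -0.85 (SE 1.06, adjusted p = 0.576). No gene of the 7 was called lower, against 6.2% of all genes.

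The outcome depended on which 2-cell library was used. Without replicate 1, 6 of the 7 genes were called higher, Tcstv3 (3.84, adjusted p = 0.00427) and Zfp352 (3.58, adjusted p = 0.00907) among them, where 32.2% of all genes were called higher. Without replicate 2, 3 were called higher (Zscan4d, Zscan4f and Usp17lc), with Zscan4d at 1.80 and Zscan4f at 2.03, Zscan4c was at 0.51, and Tcstv1 was called lower at -2.71 (adjusted p = 0.0274), where 24.4% of all genes were called higher and 13.8% lower. Usp17lc was called higher with either library left out. Without 1-cell replicate 2, Usp17lc was the single gene of the 7 called higher, as it was in a fit on the 4 libraries of both stages.

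Without any fit, both 2-cell libraries lay above both 1-cell libraries for 5 of the 7 genes (Zscan4c, Zscan4d, Zscan4f, Tcstv3 and Usp17lc). The same held for 42.7% of the 10000 genes.

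From the 2-cell to the 4-cell stage none of the 7 genes passed the test in limma, although all 7 had a negative change and 5 had an unadjusted p under 0.05. The log2 changes were -2.67 (Zscan4c), -2.50 (Zscan4f), -2.43 (Zscan4d), -2.42 (Tcstv1), -2.09 (Tcstv3), -2.03 (Usp17lc) and -1.18 (Zfp352), with standard errors of 0.79 to 1.15. Adjusted p-values ranged from 0.114 for Zscan4d to 0.52 for Zfp352. Of all genes tested, 1.82% were called lower in this interval, and the median change was 0.04, against -2.42 for the 7 genes.

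This result also depended on the 2-cell libraries. Without 2-cell replicate 1 all 7 were called lower at the 4-cell stage, from -5.34 for Zscan4c (adjusted p = 0.000243) to -3.10 for Zfp352 (adjusted p = 0.038), where 13.6% of all genes were called lower. Without replicate 2 none was called, against 6.35% of all genes called lower and 10.7% called higher, and the changes ran from -0.68 for Usp17lc to 0.75 for Zfp352. Both 2-cell libraries lay above both 4-cell libraries for 4 of the 7 genes (Zscan4d, Tcstv1, Tcstv3 and Usp17lc), as they did for 22.1% of all genes.

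**Figure D4:**
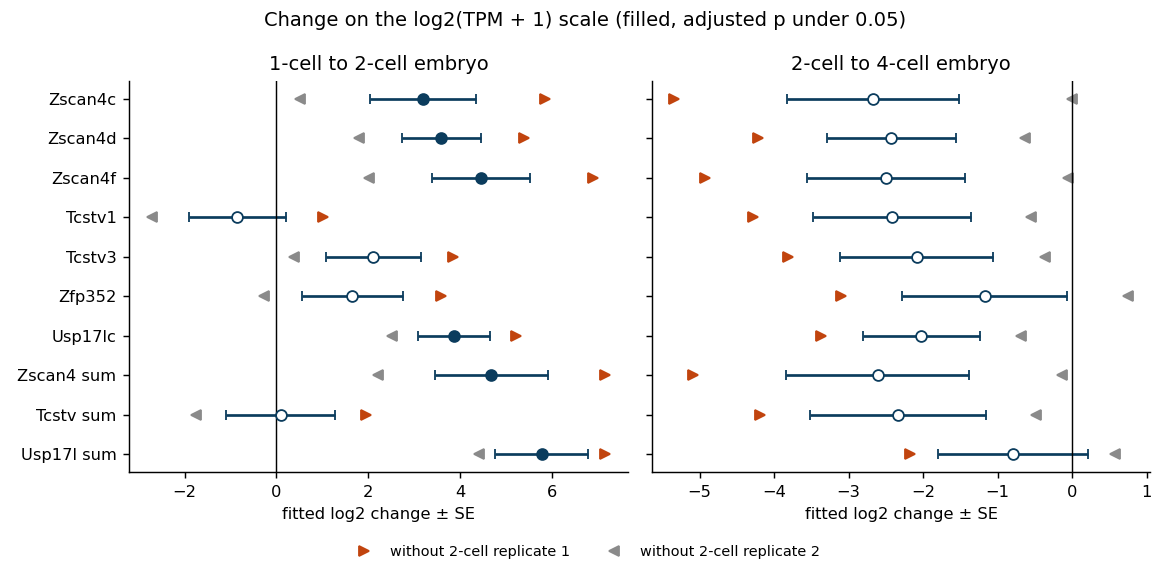
Fitted log2 change of each gene and family sum from the 1-cell to the 2-cell stage (left) and from the 2-cell to the 4-cell stage (right), with the standard error as bars. Filled circles passed an adjusted p of 0.05, and triangles give the change without one of the 2-cell libraries; on the left 4 genes and 2 family sums are filled, and on the right none.

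None of the 7 genes passed the limma test at the step into the 1-cell stage, between 4-cell and 8-cell or between 8-cell and blastocyst, and none had an unadjusted p under 0.05 there. The background of calls in either direction was 0.38%, 1.67% and 3% of all genes. The median log2 change of the 7 genes was 0.81, -0.47 and -1.08 in these intervals, against 0.23, -0.34 and -0.14 for all genes. Of the 7, Zfp352 had the largest change from oocyte to 1-cell, at 2.36 (SE 1.10, adjusted p = 0.546).

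Sums over a family depend less than single genes on how reads shared by its measured copies were split. The Zscan4 sum held Zscan4c, Zscan4d, Zscan4f, Zscan4a and Zscan4-ps2, the 5 of 9 annotated Zscan4 genes with a merged transcript. It was at 2.94 and 3.12 TPM in 1-cell embryos, 17.6 and 575 in 2-cell embryos, and 17.8 and 14.2 in 4-cell embryos. It rose by 4.68 from 1-cell to 2-cell (SE 1.23, adjusted p = 0.0105), where 26% of the 9994 genes and sums tested were called higher. This call was lost without either 1-cell library (adjusted p = 0.0642 and 0.0695), without 2-cell replicate 2 (adjusted p = 0.0642) and with only the 4 libraries of both stages (adjusted p = 0.0608).

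Within the Zscan4 sum the shares of the genes differed between the 2-cell libraries. In replicate 2, Zscan4f held 29.1%, Zscan4c 22.8%, Zscan4-ps2 21.2%, Zscan4a 15.3% and Zscan4d 11.6%. In replicate 1, Zscan4f held 27.2%, Zscan4d 26.5%, Zscan4a 26.4%, Zscan4c 12.8% and Zscan4-ps2 7.1%. In the 4-cell libraries the shares of Zscan4c were 13.4% and 14.9%. These shares rest on the split of shared reads described above.

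The Usp17l sum held Usp17lc and Usp17lb, the 2 of 6 annotated genes of that family with a merged transcript. It was at 0.593 and 0.387 TPM in 1-cell embryos, 30.5 and 211 in 2-cell embryos, and 38.7 and 54.6 in 4-cell embryos, and it rose by 5.78 from 1-cell to 2-cell (SE 1.01, adjusted p = 0.000859). Usp17lb gave most of it, with 80.5% and 79.1% in 2-cell embryos and 92.2% and 93.3% in 4-cell embryos. Usp17lb was at 24.5 and 167 TPM in 2-cell embryos and at 35.7 and 50.9 in 4-cell embryos, so its 4-cell libraries lay between the 2-cell ones, whereas those of Usp17lc lay below both. The difference between the 2 genes was not tested.

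The Tcstv sum (Tcstv1 and Tcstv3) was at 42.5 and 26.4 TPM in 1-cell embryos and at 9.20 and 132 in 2-cell embryos. Its change from 1-cell to 2-cell was 0.09 (SE 1.18, adjusted p = 0.963), and its direction turned under quantile normalization (-0.20). No family sum, and not Zfp352 alone, passed the test from 2-cell to 4-cell, where 1.83% were called lower.

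Of the 8 merged transcripts of these genes, 4 were called higher at the 2-cell than at the 1-cell stage, where 22.9% of the 20250 transcripts tested were called higher. Both transcripts of Zscan4f were among them. The 4-exon one was at 1.20 and 85.6 TPM in 2-cell embryos and rose by 3.60 (SE 1.18, adjusted p = 0.0389), and the 5-exon one was at 3.57 and 81.8 and rose by 3.94 (SE 0.97, adjusted p = 0.0109). The other 6 transcripts are each the single one of their gene. Of these, the transcripts of Usp17lc (adjusted p = 0.00522) and Zscan4d (adjusted p = 0.0124) passed, and that of Zscan4c, with the same change as its gene, had an adjusted p of 0.0701 in this larger table. None of the 8 was called lower from 2-cell to 4-cell in limma, where 1.17% of all transcripts were.

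TPM had also been computed over the long-read transcripts of each library's own stage. On that scale, Zscan4c was at 2.28 and 120 TPM in 2-cell embryos, Zscan4d at 4.49 and 62.9, Zscan4f at 5.24 and 163, Zfp352 at 5.20 and 72.0, and Usp17lc at 15.6 and 53.7. The gap between the replicates was therefore there too. Tcstv1 was listed higher on this scale at the 2-cell stage, at 12.5 and 134 TPM. Tcstv3, with no long-read transcript of its own in the 2-cell pool, has no value there. Over the merged transcripts, Tcstv1 was at 3.63 and 60.5 and the Tcstv sum at 9.20 and 132. In the blastocyst pool, where Tcstv3 was found and Tcstv1 was not, Tcstv3 was at 20.3 and 0.311, against 5.29 and 0 over the merged transcripts. Whether reads of 1 copy were given to the other where only that other was listed was not tested.

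Other genes of the 2-cell programme were read from a list of 41 that includes the copies Zscan4a, Zscan4-ps2 and Usp17lb. Of these, 28 had a merged transcript that passed the filter, and 26 of the 28 rose from 1-cell to 2-cell, against 26.1% of all genes. The list was chosen with earlier results of these data known. All of the 28 except Sp110, Arg2, Zscan5b, Trim43a and Gm5662 were below 1 TPM in every oocyte and 1-cell library. The genes below 1 TPM there passed the filter only through later libraries, which favours a rise. The count is therefore no independent test. Genes of the same family, such as Trim43a, Trim43b and Trim43c, were counted apart. The median log2 change of the 28 was 3.89. Arg2, an arginase of mitochondria, and Sp110, a nuclear body protein, did not pass (-0.97 and -0.60). None of the 28 was called lower from 2-cell to 4-cell, 4 had a negative change with an unadjusted p under 0.05, and their median change was -0.35. Without 2-cell replicate 1, 11 of them were called lower, where 13.6% of all genes were.

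The 5 largest rises of that list were those of Trim43b, Usp17lb, AF067063, Zscan5b and Tmem92. All of these except Zscan5b passed the filter only through later libraries, which favours a rise. Trim43b, a gene of the tripartite motif family, was at 0.634 and 0.136 TPM in 1-cell embryos, 55.1 and 235 in 2-cell embryos, and 830 and 772 in 4-cell embryos, and it rose by 6.40 (SE 0.82, adjusted p = 0.000169) from 1-cell to 2-cell. Usp17lb rose by 5.69 (SE 0.96, adjusted p = 0.000729) and AF067063 by 5.57 (SE 0.80, adjusted p = 0.000281). Zscan5b rose by 5.35 (SE 0.72, adjusted p = 0.000199) and Tmem92 by 4.80 (SE 0.72, adjusted p = 0.00035). Zscan5b was at 48.2 and 141 TPM in 2-cell embryos and at 128 and 152 in 4-cell embryos, so its 4-cell values lay above 2-cell replicate 1 and on either side of replicate 2, whereas those of Trim43b lay above both. All 28 genes were higher in 2-cell replicate 2 than in replicate 1, and 21 by more than 2 on the log2 scale.

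Calls of lower levels in that list came at later stages. From 4-cell to 8-cell Zscan5b fell by 3.31 (adjusted p = 0.0343), the single gene of the 28 called lower, against 0.9% of all genes. This call was lost under 11 of 20 other settings, and without any one of the 4-cell or 8-cell libraries no gene of the 10000 was called in this interval. From 8-cell to blastocyst 5 of the 28 fell, against 1.49% of all genes: the log2 change was -5.94 for Trim43b (adjusted p = 0.00181), -4.73 for Trim43c (adjusted p = 0.00476), -4.27 for Sp110 (adjusted p = 0.0113), -2.89 for Zscan5b (adjusted p = 0.0437) and -2.63 for Tdpoz4 (adjusted p = 0.049). With only the 4 libraries of both stages none of the 10000 genes was called, and all 5 calls were lost without 8-cell replicate 1, where 8 genes in all were called lower. Without 8-cell replicate 2 the calls of Trim43b and Trim43c held, and without blastocyst replicate 2 that of Trim43b alone. The calls of Zscan5b and Tdpoz4 were each lost under 14 of 20 settings. Trim43b went from 360 and 213 TPM in 8-cell embryos to 7.62 and 1.39 in blastocysts.

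Of 17 regulators of the programme, all of which passed the filter, 5 rose from 1-cell to 2-cell and none fell, against 32.3% of all genes called in either direction. Among 6 activators, Dppa4, a chromatin protein that acts upstream of Dux, rose by 5.60 (SE 0.88, adjusted p = 0.000447), from 1.35 and 0.598 TPM to 45.9 and 187. Its partner Dppa2 had a change of 2.30 (SE 0.89, adjusted p = 0.0633). Duxf3, the gene of DUX, was at 1.17 and 1.46 TPM in 1-cell embryos, 0 and 5.53 in 2-cell embryos, and 0.868 and 0.916 in 4-cell embryos, with a change of 0.14 (SE 0.68, adjusted p = 0.894). Sperm replicate 2 held 17.8 TPM of it and it was listed at 0 in sperm replicate 1. Nelfa, Klf17 and Nr5a2 had changes of -0.27, -1.50 and 1.92 and did not pass, and Nr5a2, a nuclear receptor, rose from 2-cell to 4-cell by 3.25 (SE 0.79, adjusted p = 0.0439), where 1.58% of all genes were called higher. That call was lost under 14 of 20 other settings (adjusted p = 0.0125 to 0.349), among them the replicate block and each fit without a 4-cell library. Klf17 fell by 4.13 from 4-cell to 8-cell (SE 0.75, adjusted p = 0.0141), a call lost without any one of the 4-cell or 8-cell libraries (adjusted p up to 0.196).

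Of 11 repressors, 4 rose from 1-cell to 2-cell, where 26.1% of all genes were called higher: Ehmt2, a histone H3 lysine 9 methyltransferase, by 3.71 (adjusted p = 0.000854), Chaf1b, a subunit of chromatin assembly factor 1, by 3.04 (adjusted p = 0.00439), Trim28, a corepressor, by 2.10 (adjusted p = 0.034), and Zmym2 by 2.09 (adjusted p = 0.0269). The calls of Trim28 and Zmym2 were each lost under 10 of 20 other settings. The other 7, Kdm1a, Setdb1, Chaf1a, Rif1, Pcgf6, Kat5 and Ep400, did not pass, with changes of -1.05 to 1.74. From 2-cell to 4-cell none of the 11 passed. Without 1-cell replicate 2, 2 of the 17 regulators were called from 1-cell to 2-cell, and without any one of the 4-cell or 8-cell libraries 3 were.

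The genes whose pattern was most like that of each family were read from Pearson's r of log2(TPM + 1) over the 14 short-read libraries, among 10055 genes that reached 10 TPM in a library. The libraries share their stages, so r mostly describes the shape over the 7 stages and the gap between the 2-cell replicates. For the Zscan4 sum these were Gm11756 (r = 0.983), Fzd7, a receptor of Wnt ligands (0.970), and Gm13078 (0.965). Fzd7 was at 5.39 and 144 TPM in 2-cell embryos and at 7.28 at most in any other library. For the Usp17l sum they were AC136710.2 (0.988), Gm47808 (0.980) and Gm10653 (0.976), for Zfp352 Gm9124 (0.920), Gm21818 (0.908) and Otud4 (0.889), and for the Tcstv sum Gm4961 (0.942), Akr1cl (0.918) and Zfp980 (0.914).

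Among the 7 genes themselves, the Zscan4 members had r of 0.969 to 0.992 with each other over the 14 libraries. Tcstv1 was the least like the rest, with r of 0.0964 to Usp17lc, 0.440 to Zscan4f and 0.635 to its near copy Tcstv3. Zfp352 and Tcstv3 had an r of 0.913. By mean TPM at the 2-cell stage the order was Zscan4f (86.1), Zscan4c (66.5), Zfp352 (38.7), Tcstv3 (38.4), Zscan4d (35.7), Tcstv1 (32.1) and Usp17lc (25.0), and the ranges of the 2 libraries overlapped for all neighbours in it.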

How the data were processed

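Per the labels and the methods, the authors mapped long reads to mm10, collapsed them by stage and merged the stages. They deposited exon coordinates and, for each short-read library, TPM made with salmon, over the merged transcripts and over those of the library's own stage. Read numbers per transcript cannot be recovered from TPM, so no count test was run and no interval is given. The study lists sequencing totals for each library, and they were not used here. Tools credited to the submitters' notes were GSNAP, STAR, Cufflinks and Salmon.

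Merged transcripts were assigned to GENCODE vM21 genes by the largest exon overlap on the same strand, and 4279 overlapped none. Genes with at least 1 TPM in at least 2 of the 12 libraries from oocyte to blastocyst (2 per stage) were fitted with limma 3.58.1 in R 4.3.3 (lmFit, contrasts.fit, eBayes with a trend) on log2(TPM + 1), with stage as the only term. Each interval was adjusted by Benjamini-Hochberg over all genes and called at an adjusted p under 0.05. Families summed every gene whose symbol starts with Zscan4, Tcstv or Usp17l. The fit was tested on simulated data, where genes that had not been changed were called too. In each interval 200 of 10000 genes were changed by 2 on the log2 scale. In one setting each simulated gene took, at each stage, the SD that a gene drawn at random had there. In that setting 52 were recovered from 1-cell to 2-cell beside 274 false calls. From 2-cell to 4-cell, 61 were recovered beside 193 false calls. With the median SD of the 4-cell stage for all genes and stages the false calls were 9 and 11. The adjusted p thus did not hold false calls at its threshold in the first setting. The settings differ in the spread between genes as well as between stages, so they cannot tell which of these gave the false calls. How many false calls the real data hold was not tested. Promoter windows are from RefSeq, and coding sequences from GENCODE vM21. The coding sequences of the 3 Zscan4 members were aligned with mafft 7.526 to find the bases that differ. Percent identities between pairs of genes came from global alignment with edlib. Python 3.11.15 and pandas 2.3.3 were used.

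All members, the family sums, the 5 largest rises and falls among called genes of the other list, and every regulator were to be named. Both 8-cell titles number the replicates opposite to their files, and the titles were followed. The members and lists were chosen with earlier results of these data known. Alternatives were a pseudocount of 0.1, other filters, quantile normalization, 4 libraries alone, a replicate block, a spread weighted by stage, every overlapping gene and each library left out.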

Additional observations from a re-analysis of the deposited data

How the results depend on the processing

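The number of genes called higher from 1-cell to 2-cell was 4 and stayed at 3 or 4 with a pseudocount of 0.1, no filter, quantile normalization, a spread weighted by stage or every overlapping gene. It was 1 with a filter at 5 TPM, which leaves 4 of the 7 genes in the test, and 1 with only the 4 libraries of both stages. Quantile normalization moved the median change of all genes from 0.72 to -0.12 in this interval and the share of higher among called genes from 80.8% to 47.5%. It gave 1 gene (Usp17lc) and 2 transcripts called lower at the 4-cell stage. With a spread weighted by stage, 1370 of the 10000 genes were called higher from 1-cell to 2-cell, against 2607 in the main fit. From 2-cell to 4-cell, 1 of the 10000 genes was called in either direction under that weighting, against 340. At the 8-cell stage, 1 gene was called with 4 libraries and 2 with the weighted spread. With 4 libraries 16 other 2-cell genes, 2 regulators, 1 family sum and 0 transcripts were called higher or changed from 1-cell to 2-cell, the weighted spread gave 2 regulators, and the filter at 5 TPM gave 1 transcript. The cause of these changes was not tested.

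Leaving out single libraries gave 1 to 6 genes called higher at the 2-cell stage, 0 to 7 called lower at the 4-cell stage and 0 to 1 called at the 8-cell stage. The ranges were 16 to 26 and 0 to 11 for the other 2-cell genes, 2 to 6 for regulators, 1 to 3 and 0 to 3 for family sums, and 1 to 7 and 0 to 7 for transcripts. Without 2-cell replicate 2 the change from 2-cell to 4-cell turned to 0.002 for Zscan4c, 0.75 for Zfp352 and 0.58 for the Usp17l sum, and that from 1-cell to 2-cell to -0.27 for Zfp352 and -1.76 for the Tcstv sum. It made that of Tcstv1 -2.71. Without 2-cell replicate 1 the 1-cell to 2-cell change was 1.02 for Tcstv1, 3.58 for Zfp352 and 1.94 for the Tcstv sum, and the next one was -5.34 for Zscan4c, -3.10 for Zfp352 and -2.17 for the Usp17l sum. The Tcstv sum turned to -0.24 without 1-cell replicate 2 and to -0.20 under quantile normalization. A stage left with 1 library was assumed to vary like the others.

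Whether the replicate numbers pair the samples cannot be told from these values. The correlation of replicate differences was over 0.1 in 5 of 15 pairs of stages (-0.55 to 0.48). It was 0.48 for 8-cell and blastocyst, 0.36 for 2-cell and 4-cell and -0.55 for 2-cell and blastocyst. Its sign for pairs with the 8-cell stage depends on following the titles. A batch shared between stages was not tested. With a replicate block, 3 of the 7 genes were called higher from 1-cell to 2-cell, and Zscan4c was not, with 2376 genes higher and 518 lower in all, against 2607 and 620.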

Other observations

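Spz1, a transcription factor of the testis that was in the list of other 2-cell genes, was at 330 and 38.9 TPM in sperm, at 0 in both oocyte libraries and at 3.22 and 19.5 among 2-cell embryos. It was named after its values were seen.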
